A study of Microtus ochrogaster with 34 samples.

Results

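The testis transcriptome of the montane water vole, *Arvicola terrestris scherman* (*ATS*), was searched for genes that are even across season and reproductive state. As scaled by the authors, 11 of 23038 genes combined a high level with little variation. They were chosen from the RPKM of 34 testis libraries (reads per kilobase of exon and per unit of library size). A gene was retained when its mean over the 34 libraries was at least 50 RPKM, when its largest group mean was at most 1.1 times its smallest, and when its coefficient of variation (CV, the SD divided by the mean) over the 34 libraries was at most 10%. The same values therefore chose these genes and describe them, and no test is read from their differences between groups. With library totals set equal, quantile normalization or the upper quartile set equal, 0 of the 11 genes met these criteria.

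The males were wild-caught adults of WT genotype, brought back to an animal facility, and 1 testis library came from each. The summer (S) males (n = 18) were trapped in July and August. Trapping in January and February gave the winter males, namely 11 W- males, which do not maintain spermatogenesis, and 5 W+ males, which do. The W- group pools animals with empty seminiferous tubules and animals in an intermediate condition, so that it is not a single histological state, and no agent or allele was applied to any group.

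A reference gene is a gene whose transcript level is taken as constant, so that other transcripts can be expressed relative to it, as actin was in the qRT-PCR of this study. The regressing testis is a hard case for such genes. Seminiferous tubules hold germ cells from spermatogonia to spermatids together with Sertoli cells, while Leydig, peritubular and vascular cells lie around them, and in seasonal regression the later germ cells disappear while somatic cells remain. In bulk tissue the level of a transcript relative to others depends on its amounts in the cells that go and in those that stay. Fewer cells of a type and less RNA per cell cannot be told apart in these libraries.

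The genes are known here only by the identifiers of the annotation of the prairie vole, *Microtus ochrogaster*, to whose genome the reads were aligned. The reference table at hand paired 0 of these identifiers with a symbol, so that neither the function of the 11 genes nor the testis markers of each group could be examined, and actin itself could not be located. The reads behind the RPKM could be recovered as whole numbers, which gave 5534633 to 63857264 counted reads per S library, 2938628 to 9653984 per W- library and 4960105 to 8576454 per W+ library. The 4 deepest libraries, S replicates 12 to 15, were all from summer.

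Of the 23038 genes, 2823 had a mean of at least 50 RPKM and are called abundant genes here. Among them the CV had quartiles of 29.1% and 65.2% with a median of 46.2%, and the ratio of the largest to the smallest group mean had a median of 2.69. Few abundant genes met the ratio limit, and fewer still met the CV limit, which takes in differences between groups as well as between animals. The ratio threshold alone was met by 70 abundant genes, of which 59 varied too much between libraries, with CVs from 10.4% to 76.1% and a median of 16.8%. The CV threshold was met by 13 abundant genes, of which 2 had too large a ratio. The plot of CV against group ratio places the 11 retained genes in its lower left corner.

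**Figure D1:**
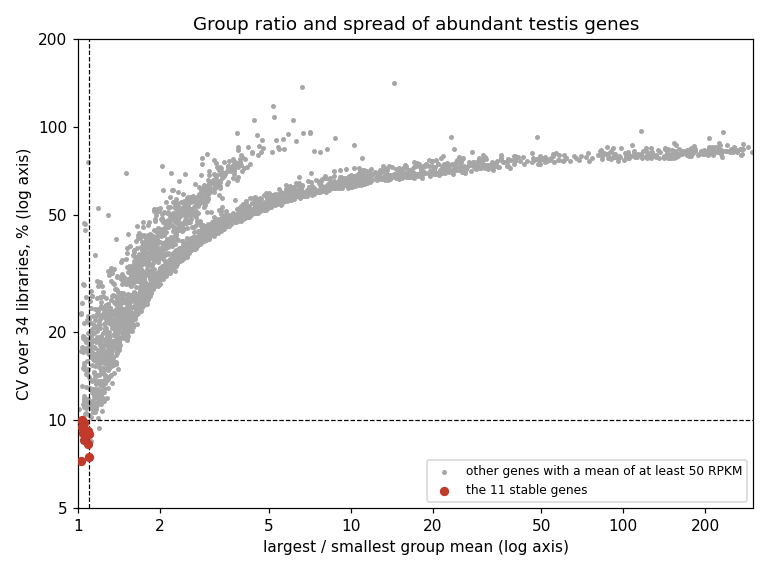
Each point is 1 of the 2823 abundant genes (mean of 50 RPKM or more), with the ratio of its largest to its smallest group mean on the x axis and its CV over 34 libraries in percent on the y axis, both logarithmic. Dashed lines mark the thresholds of 1.1 and 10%, the 11 retained genes are red, and 8 genes with a ratio above 300 lie beyond the right edge.

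The genes nearest to each threshold were as follows. The 2 lowest means inside the limit were 59.8 RPKM for ENSMOCG00000002382 and 70.8 RPKM for ENSMOCG00000001162, while ENSMOCG00000022526 (37.2 RPKM) and ENSMOCG00000022768 (36.6 RPKM) met both other criteria below it. The 2 highest ratios inside were 1.099 for ENSMOCG00000014315 and 1.094 for ENSMOCG00000012256, against 1.113 for ENSMOCG00000012493 and 1.197 for ENSMOCG00000013487 outside. The 2 highest CVs inside were 9.95% for ENSMOCG00000001162 and 9.92% for ENSMOCG00000013773, against 10.4% for ENSMOCG00000015471 and 10.5% for ENSMOCG00000012943. The first gene outside was close to the limit for the ratio and the CV and far from it for the mean.

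The 11 genes are described in order of their mean RPKM, a scale that is per length and so can be compared between genes. Levels are given as the lowest, median and highest library for S (n = 18) and W- (n = 11) and as each library for W+ (replicates 1 to 5 in turn), and group means with their SD over the same animals.

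ENSMOCG00000013773 stood far above the others, with a mean of 435 RPKM and rank 102 by mean among all genes. Its level ran from 376 through 427 to 532 RPKM in S libraries and from 354 through 449 to 517 RPKM in W- libraries. In W+ libraries it was 508, 393, 396, 458 and 429 RPKM. The group means were 429 ± 35.9 RPKM in S, 445 ± 53.4 RPKM in W- and 437 ± 48.1 RPKM in W+. The ranges of S and W- largely coincided, the highest value of all belonged to S replicate 1, and the CV of 9.92% was close to the limit.

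ENSMOCG00000014206 followed with a mean of 147 RPKM. The lowest, median and highest levels were 129.7, 144 and 161 RPKM in S libraries and 125, 154 and 176 RPKM in W- libraries. The 5 W+ libraries had 162, 154, 148, 184 and 132 RPKM. The group means were 143 ± 8.10 RPKM in S, 150.2 ± 16.4 RPKM in W- and 156 ± 18.9 RPKM in W+, and differed by less than the SD of either winter group. W+ replicate 4 held its highest value and W- replicate 11 its lowest.

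ENSMOCG00000007891 had a mean of 98.9 RPKM. S libraries spanned 86.2 through 98.7 to 106 RPKM, and W- libraries spanned 85.0 through 100.3 to 120.0 RPKM. W+ males had 95.5, 98.5, 113, 109.5 and 93.5 RPKM. Both its extremes belonged to W- males (replicates 10 and 1), and the group means of 97.4 ± 5.83 (S), 100.01 ± 12.8 (W-) and 102 ± 8.67 RPKM (W+) differed by less than any of their SDs.

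ENSMOCG00000000203 had the lowest CV of all 2823 abundant genes, 7.21%, and the smallest group ratio of the 11, 1.03, at a mean of 89.97 RPKM. Among S males it ranged from 81.0 through 90.9 to 97.1 RPKM, and among W- males from 72.6 through 94.4 to 101 RPKM. Levels in the W+ libraries were 85.8, 91.5, 82.4, 88.7 and 92.6 RPKM. The group means were 90.6 ± 4.57 RPKM in S, 89.7 ± 9.70 RPKM in W- and 88.2 ± 4.20 RPKM in W+. All W+ values and all S values lay within the W- range.

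ENSMOCG00000014315, with a mean of 82.9 RPKM, had the largest group ratio of the 11. Its level ran from 71.7 through 79.9 to 89.0 RPKM in S libraries and from 63.6 through 88.9 to 94.2 RPKM in W- libraries. In W+ libraries it was 91.7, 92.5, 79.4, 82.6 and 90.5 RPKM. The S mean of 79.5 ± 5.00 RPKM lay below those of W- (86.4 ± 8.99 RPKM) and W+ (87.4 ± 5.95 RPKM), so that both winter groups were on the same side of summer. The lowest library of all was W- replicate 4, however, and 3 of the 5 W+ values exceeded every S value.

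ENSMOCG00000003282 had a mean of 79.0 RPKM. The lowest, median and highest levels were 69.6, 77.5 and 89.5 RPKM in S libraries and 68.8, 75.9 and 92.9 RPKM in W- libraries. The 5 W+ libraries had 74.9, 87.4, 81.8, 86.3 and 80.0 RPKM. The S and W- means, 78.7 ± 6.49 and 78.0 ± 7.87 RPKM, were nearly equal, and the W+ mean was 82.1 ± 5.03 RPKM. Its highest library was 1.35 times its lowest, the narrowest whole range of the 11.

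ENSMOCG00000016628 had a mean of 76.2 RPKM. S libraries spanned 63.8 through 75.03 to 84.7 RPKM, and W- libraries spanned 62.9 through 80.3 to 90.2 RPKM. W+ males had 78.5, 70.7, 69.7, 81.9 and 76.4 RPKM. The S and W+ means, 75.3 ± 6.52 and 75.5 ± 5.19 RPKM, almost coincided, and the W- mean was 78.1 ± 9.10 RPKM.

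ENSMOCG00000012769 had a mean of 75.1 RPKM. Among S males it ranged from 64.1 through 74.4 to 87.0 RPKM, and among W- males from 62.5 through 80.5 to 87.1 RPKM. Levels in the W+ libraries were 72.8, 77.9, 60.9, 78.7 and 78.9 RPKM. W+ replicate 3 was the lowest of all libraries and the other W+ libraries lay close together, and the group means were 74.1 ± 6.87 RPKM in S, 77.4 ± 8.13 RPKM in W- and 73.8 ± 7.66 RPKM in W+.

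ENSMOCG00000012256, at a mean of 73.4 RPKM, had the second lowest CV of the abundant genes, 7.48%. Its level ran from 69.8 through 75.2 to 87.3 RPKM in S libraries and from 61.4 through 67.2 to 80.3 RPKM in W- libraries. In W+ libraries it was 72.3, 72.0, 75.2, 76.5 and 72.8 RPKM. It was the only one of the 11 with a CV of at most 10% in every group, at 5.40% in S, 9.18% in W- and 2.69% in W+. Its W- mean of 69.3 ± 6.36 RPKM was nevertheless the lowest of the 3, against 75.8 ± 4.10 RPKM in S and 73.8 ± 1.99 RPKM in W+.

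ENSMOCG00000001162 had a mean of 70.8 RPKM and the highest CV of the 11. The lowest, median and highest levels were 62.9, 71.7 and 83.1 RPKM in S libraries and 55.7, 68.4 and 89.1 RPKM in W- libraries. The 5 W+ libraries had 66.3, 67.6, 74.5, 77.3 and 62.8 RPKM. Its 3 group means of 71.9 ± 4.30 (S), 69.6 ± 10.7 (W-) and 69.7 ± 6.00 RPKM (W+) were close, but within W- its CV reached 15.3%, and its highest W- library was 1.60 times its lowest.

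ENSMOCG00000002382 had the lowest mean, 59.8 RPKM. S libraries spanned 50.04 through 61.5 to 65.6 RPKM, and W- libraries spanned 51.3 through 55.1 to 69.3 RPKM. W+ males had 61.2, 63.1, 68.1, 64.5 and 59.3 RPKM. The group means were 60.0 ± 3.91 RPKM in S, 57.9 ± 6.40 RPKM in W- and 63.2 ± 3.33 RPKM in W+. It was the only one of the 11 whose lowest library was from summer, S replicate 18.

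**Figure D2:**
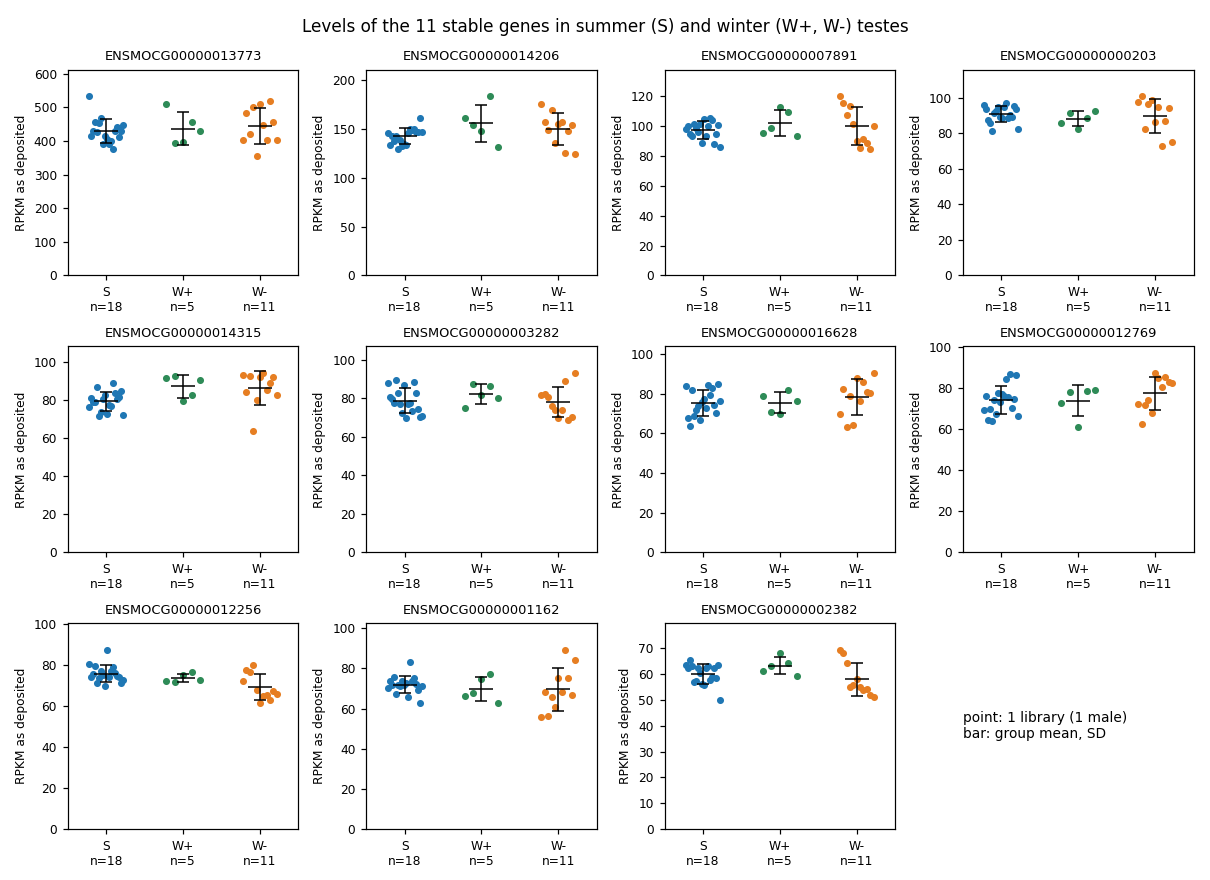
Each panel shows 1 of the 11 genes, with the group on the x axis and the deposited RPKM on a y axis that starts at 0. Points are libraries (18 S, 5 W+, 11 W-) and bars are the group mean and SD, and in every panel the 3 groups overlap.

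No group was always the highest. W+ had the highest mean for 5 genes and W- and S for 3 each, and the lowest mean was in S for 5 genes, in W- for 4 and in W+ for 2. For none of the 11 genes did the values of any 2 groups separate. The limits on ratio and CV, applied to these same libraries, favoured such overlap, so that it restates the choice of the genes. For background, the values did not overlap for 68.7% of abundant genes between S and W-, for 60.7% between W+ and W- and for 20.9% between W+ and S.

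The authors tested differential expression with DESeq2, which works on read counts. Here limma on log2(RPKM + 0.1) gives the background of these comparisons over 19185 genes, those that reached 0.1 RPKM in 5 or more libraries. All 11 genes passed this filter. A call needed a log2 difference beyond 1 and a p, adjusted by Benjamini-Hochberg, under 0.05. Between S and W-, 0 of the 11 were called, while 51.6% of tested genes were, and 2 of the 11 had an unadjusted p under 0.05 against 81.0% of tested genes. Between W+ and W-, 0 were called against 37.3% of tested genes, with an unadjusted p under 0.05 for 0 of the 11 and for 66.7% of tested genes. Between W+ and S, 0 were called against 8.23% of tested genes, with an unadjusted p under 0.05 for 0 of the 11 and for 37.6% of tested genes. These counts restate the choice of the genes and are no result about them.

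On the log2 scale the 11 genes had a median difference of -0.03 for S minus W-, from -0.11 for ENSMOCG00000014315 to 0.13 for ENSMOCG00000012256. For W+ minus W- the median was 0.02, from -0.07 for ENSMOCG00000012769 to 0.13 for ENSMOCG00000002382. For W+ minus S, a comparison that shares its libraries with the other two, it was 0.02, from -0.05 for ENSMOCG00000001162 to 0.14 for ENSMOCG00000014315. Differences as small as the largest among the 11 were rare between S and W- (6.61% of tested genes) and between W+ and W- (9.21%) and less rare between W+ and S (22.3%). The median absolute log2 difference of tested genes was 1.06, 0.79 and 0.34 in these comparisons.

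Similar group means did not imply similar animals. The CV of the 11 genes within S ran from 5.04% to 9.26% with a median of 6.29%, and all 11 were at most 10%. Within W+ it ran from 2.69% to 12.1% with a median of 6.88%, and 8 were at most 10%. Within W- it ran from 9.18% to 15.3% with a median of 10.9%, and only ENSMOCG00000012256 was at most 10%. The medians of S and W+ were close, and the W- median was the highest of the 3.

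The wider spread in W- was shared by most abundant genes. The CV was higher in W- than in S for 11 of the 11 genes and for 89.8% of abundant genes, and higher in W- than in W+ for 10 of the 11 and for 71.2% of abundant genes. A CV of at most 10% was reached by 22.7% of abundant genes in S, by 13.6% in W+ and by 4.99% in W-. In all, 24 abundant genes kept a CV of at most 10% in each group taken alone, but their group ratios ran from 1.09 to 2.18 with a median of 1.39, and ENSMOCG00000012256 was the only one of them with a ratio of at most 1.1. A W- library held the lowest value for 9 of the 11 genes, the highest for 8 and both for 6.

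**Figure D3:**
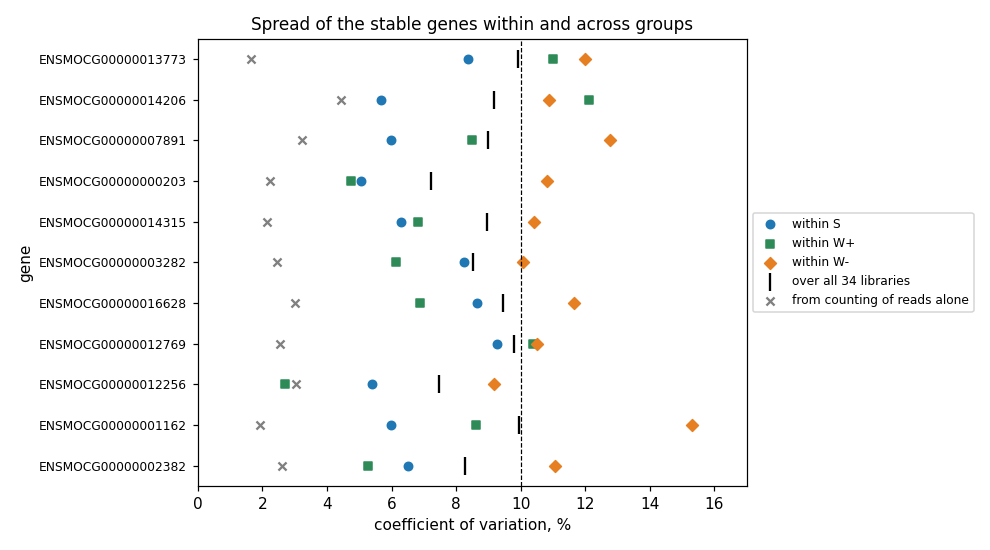
CV in percent (x axis) of each of the 11 genes (y axis) within S (blue circles), W+ (green squares) and W- (orange diamonds), over all 34 libraries (black bars) and from the counting of reads alone (grey crosses). The dashed line is 10%, which every W- value except that of ENSMOCG00000012256 exceeds.

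Over all 34 libraries, the counting of reads accounted for the lesser share of the spread of the 11 genes. The 11 genes had between 248 reads (ENSMOCG00000014206) and 22236 reads (ENSMOCG00000013773) in a single library, so that the counting error of 1 value lay between 0.671% and 6.35%. Counting alone would give CVs from 1.64% to 4.43%, with a median of 2.56%, and its share of the variance ran from 2.72% for ENSMOCG00000013773 to 23.2% for ENSMOCG00000014206, the shortest gene. With that share removed, the CVs ran from 6.84% to 9.78%. These figures cover counting error only, since the libraries carry no molecular identifiers. The share of counting within each group was not computed, and it need not be the lesser one. The CV of ENSMOCG00000012256 within W+, 2.69%, was below its counting CV over 34 libraries, 3.03%. For ENSMOCG00000014206 the CV within S was 5.67%, against a counting CV of 4.43%.

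Read number and gene length were not themselves criteria of the rule, although both enter the RPKM and the counting part of the CV. The exonic length recovered from the RPKM ran from 444 bases for ENSMOCG00000014206 to 4934 bases for ENSMOCG00000001162, with a median of 2612 bases, against quartiles of 684 and 2392 bases and a median of 1380 bases for abundant genes. The 6 genes longer than the upper quartile were ENSMOCG00000000203, ENSMOCG00000014315, ENSMOCG00000003282, ENSMOCG00000012769, ENSMOCG00000001162 and ENSMOCG00000002382. The median read number per library was 433 to 3269 for the 11 genes, with a median of 1405, against a median of 1009 for abundant genes. A longer gene collects more reads at the same RPKM, and the counting CV of abundant genes had a median of 3.03%.

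The 11 genes also give a level for each library, the median of their log2 deviations from their own means. In S it ran from -0.12 (replicate 18) to 0.09 (replicate 1), in W- from -0.10 (replicate 5, the library with the fewest reads) to 0.11 (replicate 2) and in W+ from -0.02 (replicate 1) to 0.11 (replicate 4). The SD within groups was 0.057, and no group lay apart. The 4 deepest S libraries were all above 0, at 0.01 to 0.07, as were 5 of the 14 other S libraries. Without these 4 libraries 7 genes met the rule, since the CVs of ENSMOCG00000013773 and ENSMOCG00000001162 rose to 10.04% and 10.05% and the ratios of ENSMOCG00000014206 and ENSMOCG00000014315 to 1.105 and 1.111. The part of sequencing depth was not tested.

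The evenness of the 11 genes rests on how the libraries were scaled to each other. The library size behind the deposited RPKM was a median-of-ratios size factor. Such a factor makes libraries equal at their typical gene, whatever the number of reads counted. As a share of all counted reads, the 11 genes together took 0.204% ± 0.00646 (SD, n = 18) in S, 0.265% ± 0.0272 (SD, n = 5) in W+ and 0.337% ± 0.0180 (SD, n = 11) in W-. The shares of the 3 groups did not overlap except at 1 library: W+ replicate 1 reached 0.311%, above the lowest W- library at 0.308%, while the other W+ libraries lay between 0.244% and 0.265% and the highest S library at 0.222%.

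With the totals of counted reads set equal, none of the 11 genes met the rule. Their CVs became 20.2% to 29.2% and their group ratios 1.495 to 1.779, and in 11 of 11 the order of the means was S, W+, W- from low to high. ENSMOCG00000000203 then had 74.6 ± 3.30 (SD, n = 18) in S, 92.6 ± 7.65 (SD, n = 5) in W+ and 121 ± 13.7 (SD, n = 11) in W-, in RPKM scaled by totals. On the same scale ENSMOCG00000012256 had 62.4 ± 3.65 in S, 77.4 ± 6.24 in W+ and 93.3 ± 7.33 in W-. The S and W- values overlapped for none of the 11 genes (and did not overlap for 68.4% of abundant genes), those of W+ and S separated for 5 (17.0%) and those of W+ and W- for 2 (60.2%). Setting totals equal applied 1 factor to each library, lowest in S and highest in W-, to genes chosen as even. The order of the means and the separation of S and W- were thus largely set in advance. They are no result about the 11 genes, and the order was not counted over abundant genes.

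Setting totals equal multiplies all genes of a library by 1 factor, so that the median log2 difference of the 11 genes moved together with that of abundant genes. For S minus W- it was -0.74 with totals set equal, against -0.03 as deposited, and that of abundant genes was 0.41 against 1.12. For W+ minus W- it was -0.34 against 0.02, and for abundant genes 0.39 against 0.75. For W+ minus S it was 0.37 against 0.02, and for abundant genes 0.07 against -0.28.

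Under totals, 9 other genes met the rule, and all of them had group ratios of 1.54 to 1.77 as deposited. The steadiest was ENSMOCG00000014915, with a CV of 4.94% and a ratio of 1.04 under totals and a CV of 20.7% and a ratio of 1.59 as deposited. Quantile normalization and scaling by the upper quartile retained 6 genes each, again with 0 of the 11. Which genes count as stable across season and state was therefore set by the scaling, and no external standard was used here to decide between scalings.

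**Figure D4:**
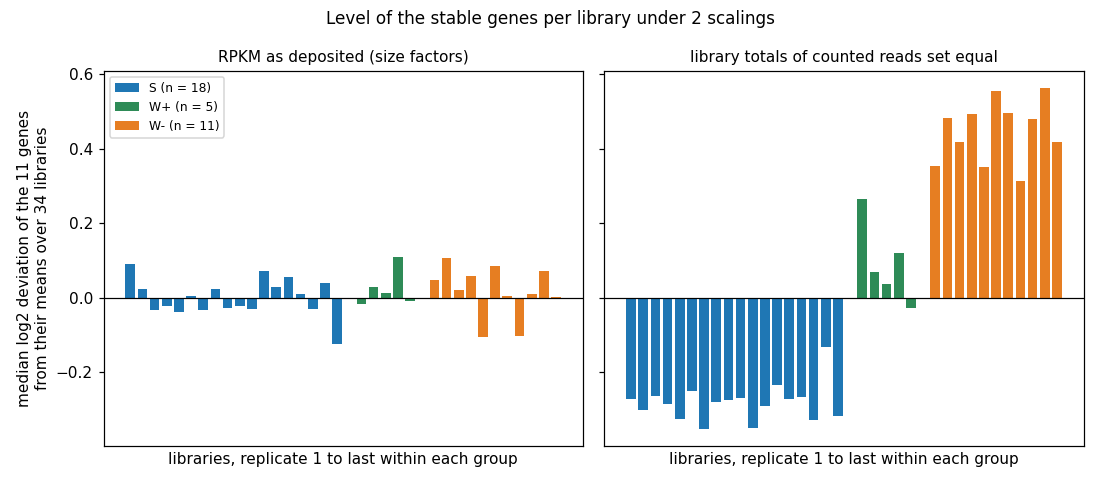
Median log2 deviation of the 11 genes from their means over 34 libraries (y axis) for each library (x axis, in the order S, W+, W-), with RPKM as deposited on the left and with library totals set equal on the right. On the left the libraries lie between -0.12 and 0.11 and the groups overlap, and on the right all S libraries lie below 0 and all W- libraries above 0.31.

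The ratio of 2 genes within a library is the same for every scaling that applies 1 factor per library, such as size factors, totals or the upper quartile, but not for quantile normalization. Over the 55 pairs of the 11 genes, the SD of the log2 ratio over 34 libraries ran from 0.12 to 0.23 with a median of 0.18, whereas pairs of the 2660 abundant genes detected in every library had a median of 0.97. Only 1.21% of those pairs had an SD at or below that of the least steady of the 55 pairs. The group means of a log2 ratio differed by at most 0.25, for ENSMOCG00000014315 to ENSMOCG00000012256. These proportions are the same under the 3 scalings by 1 factor per library, although the levels were even only under the deposited one. Because the rule required even levels in the same libraries, this is a description and not an independent check.

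The steadiest ratios linked ENSMOCG00000007891, ENSMOCG00000012256 and ENSMOCG00000002382. The SD of the log2 ratio was 0.12 over all libraries for each of their 3 pairs and 0.11 to 0.14 within W-. ENSMOCG00000000203 came next, at 0.13 with ENSMOCG00000012256, with ENSMOCG00000002382 and with ENSMOCG00000014206. ENSMOCG00000016628 had 0.14 with ENSMOCG00000001162 and with ENSMOCG00000012769, while these last genes had 0.18 with each other. Ratios of ENSMOCG00000016628, ENSMOCG00000001162 and ENSMOCG00000012769 to the first 3 genes were less steady, at 0.19 to 0.22. These groupings were seen in the values and have no test. A low SD over all libraries did not mean an even ratio across groups. The mean log2 ratio of ENSMOCG00000007891 to ENSMOCG00000012256 was 0.36 in S, 0.46 in W+ and 0.52 in W-. That range of 0.16 exceeded its SD within S (0.09), W+ (0.09) and W- (0.11). For ENSMOCG00000013773 to ENSMOCG00000016628 the range of the group means was only 0.02, at an SD of 0.15 over all libraries.

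The least steady ratio was that of ENSMOCG00000014206 to ENSMOCG00000001162, at 0.23 over all libraries and 0.35 within W-, against 0.13 within S and 0.12 within W+. In W- replicate 1 these genes were at 176 and 55.7 RPKM, the highest W- value of the first and the lowest W- value of the second, and in W- replicate 8 they were at 125 and 89.1 RPKM. ENSMOCG00000007891 and ENSMOCG00000001162 also moved apart, with 120.0 and 55.7 RPKM in W- replicate 1 and 91.7 and 89.1 RPKM in W- replicate 8. W- replicates 1 to 5 lay above replicates 6 to 11 for ENSMOCG00000007891 (101.7 to 120.0 and 85.0 to 100.3 RPKM). So they did for ENSMOCG00000012256 (67.8 to 80.3 and 61.4 to 67.2 RPKM). They lay below for ENSMOCG00000012769 (62.5 to 74.0 and 80.5 to 87.1 RPKM). For the other genes of the 11 these ranges overlapped. This division of W- was seen in the values and was not tested. Over all 55 pairs, the SD within W- had a median of 0.23, against 0.13 within S and 0.15 within W+, and it was higher in W- than in S for 53 pairs and higher in W- than in W+ for 49. Most ratios between these genes were thus less steady among W- males. These pairs share genes and are not independent, and the same count was not made over pairs of abundant genes. The CV of single genes was higher in W- than in S for 89.8% of abundant genes, and higher than in W+ for 71.2%. Whether the wider spread of ratios in W- is particular to the retained genes was therefore not tested.

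**Figure D5:**
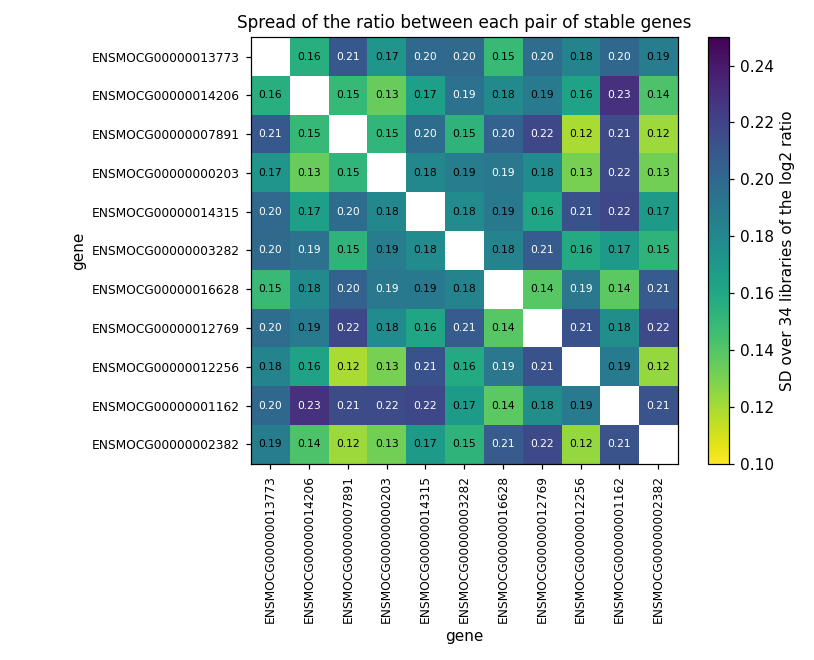
SD over 34 libraries of the log2 ratio for each pair of the 11 genes (both axes), from 0.12 in yellow to 0.23 in dark violet. The low values join ENSMOCG00000007891, ENSMOCG00000012256 and ENSMOCG00000002382, and the highest joins ENSMOCG00000014206 and ENSMOCG00000001162.

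For genes close to a limit, leaving out 1 library could change whether they met the rule. When each of the 34 libraries was left out in turn, between 8 and 14 genes met the rule. ENSMOCG00000007891, ENSMOCG00000000203, ENSMOCG00000003282, ENSMOCG00000016628 and ENSMOCG00000012769 met it every time. ENSMOCG00000014206 met it in 32 of the 34 settings, ENSMOCG00000012256 in 31 and ENSMOCG00000002382 in 30, whereas ENSMOCG00000014315 met it in 24, ENSMOCG00000013773 in 18 and ENSMOCG00000001162 in 10. Without 1 library, the CV ran only from 9.31% to 10.07% for ENSMOCG00000013773 and from 9.05% to 10.10% for ENSMOCG00000001162. The low counts of these genes thus show closeness to the CV limit and not a large effect of any 1 animal. In addition, 11 other genes met the rule at least once, ENSMOCG00000015471 most often with 3 times. The 5 genes that met the rule throughout had CVs of 7.21% to 9.78% and group ratios of 1.027 to 1.052.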

How the data were processed

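Testis poly(A) RNA of 34 wild males was sequenced single-end, 1 library per animal, and groups were taken from the sample titles. Per the methods and the labels, the authors trimmed reads with Trim Galore 0.6.10, checked them with FastQC 0.12.1, used HISAT2 for alignment to MicOch1, the genome of *Microtus ochrogaster*, took gene counts from HTSeq and computed the deposited RPKM values during DESeq2 normalization. The labels list build mm10, which the methods name only for enrichment. The annotation release, strandedness and treatment of multi-mapped reads, not given in the sources used here, leave overlapping, antisense and duplicated genes uncertain. The alignment to the genome of another species can lower the values of genes that differ in sequence, which was not tested.

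The file held 23038 genes, 2217 of them at 0 in every library. The values were used as deposited. For the 20821 other genes, 100% of values were whole multiples of 1 read (tolerance 0.001 of a read), which gave reads and exonic lengths. The library sizes matched median-of-ratios size factors over 14354 genes within 0.001%. On simulated data 100% of reads and 99.957% of lengths of 18543 genes were recovered.

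The rule used group means over S, W- and W+ columns and the sample SD. Counts over all genes came from limma 3.58.1 under R 4.3.3 (log2 of RPKM + 0.1, eBayes with a trend), in one fit of 34 libraries and no block, on genes with at least 0.1 RPKM in at least 5 libraries. Fold changes of low genes are understated on this scale. With 200 genes changed in simulated data, the same fit called 198 for S vs W-, 184 for W+ vs W- and 191 for W+ vs S, and 1, 1 and 14 unchanged genes. Other steps used Python 3.11.15, numpy 2.4.6 and pandas 2.3.3. Nothing in the labels pairs animals between groups.

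The genes, rule, thresholds and lists were chosen with earlier results of these data known. All genes meeting the rule are named, with the 2 nearest on each side of each threshold, and the other identifiers were named after their values were seen. Lists of conventional reference genes, gene families and testis cell markers were not run, because 0 identifiers paired with a symbol. For the same reason no positions or sequences are given. Alternatives covered the scaling, each threshold, the definition of the CV, the pseudocount, the filter, the fit, a replicate block and leaving out libraries.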

Additional observations from a re-analysis of the deposited data

How the results depend on the processing

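Of 11 genes meeting the rule, 6 remained with a lower ratio limit (5% above 1), 2 with a CV of at most 8%, 2 with a minimum mean of 100 RPKM and 7 without the 4 deepest S libraries, and 17 met it with a minimum of 20 RPKM and 36 with a CV of at most 15%. Quantile normalization and the upper quartile gave 6 each, sharing 0 with the 11, as did totals, with 9. Leaving out 1 library gave 8 to 14, with 14 without W- replicate 1 or S replicate 10. The median log2 difference of the 11 genes was -0.74, -0.79 and -0.52 for S minus W- under totals, quantile and upper quartile scaling, -0.34, -0.35 and -0.32 for W+ minus W-, and 0.37, 0.40 and 0.17 for W+ minus S. Leaving out 1 library moved it from -0.047 to -0.0030 for S minus W-, from -0.0085 to 0.049 for W+ minus W- and from -0.0029 to 0.0497 for W+ minus S. With no fold threshold limma called 15348 genes for S vs W-, 12243 for W+ vs W- and 5050 for W+ vs S, and with a pseudocount of 1 RPKM it called 1010 for W+ vs S. Without 1 library it called 9812 to 9986, 6791 to 7843 and 921 to 1777, the 921 without W+ replicate 1, against 1579 in all. Under totals the split of calls was 3918 up and 7394 down for S vs W- (5515 and 4375 as deposited), 3375 and 5074 for W+ vs W- (4210 and 2955) and 936 and 589 for W+ vs S (229 and 1350). Under quantile normalization it was 4373 and 6332, 3477 and 4833, and 329 and 940. The cause of these shifts was not tested. Same-numbered animals of different groups share only a number: their deviations correlated between -0.16 and 0.138. With the replicate number as a block, limma called 5522 up and 4440 down (9962) for S vs W-, 4215 and 3314 (7529) for W+ vs W- and 360 and 1641 (2001) for W+ vs S. Depth limits ENSMOCG00000014206 most, with 248 reads in its shallowest library.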
